A study of Drosophila melanogaster with 6 samples.

Results

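The nicotinic acetylcholine receptor subunits are the 10 genes nAChRalpha1 to nAChRalpha7 and nAChRbeta1 to nAChRbeta3, chosen by symbol from the 17868 genes listed in the count files of sorted Drosophila melanogaster clock neurons. All 10 symbols were found. Of these, 9 passed the filter on low counts and were tested, and nAChRbeta3 was listed at 0 in every library. The Prp3-RNAi group (3 libraries) had the genotype ClkGAL4, UAS-GFP-NLS/UAS-Prp3-RNAi, in which the clock-neuron driver Clk-GAL4 expresses a hairpin against the spliceosome gene Prp3 beside a nuclear GFP. The control group (3 libraries) had ClkGAL4, UAS-GFP-NLS/+, with the same driver and GFP but no hairpin of any kind. Adult flies of both groups spent 5 days in 12 h light and 12 h dark and were sampled at zeitgeber time (ZT) 14, counted in hours from lights-on. About 2000 GFP-positive, DAPI-negative cells were sorted per library from adult brains, and the labels do not give the number or age of the flies. Control library titles name the Prp3-RNAi library each is paired with, without saying what a pair shares.

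Nicotinic receptors are ion channels opened by acetylcholine, the main fast excitatory transmitter of the insect brain. Each receptor is a ring of subunits around a cation pore, and it belongs to the Cys-loop family together with the GABA, glutamate-gated and histamine-gated chloride channels. Alpha subunits carry a pair of adjacent cysteines at the acetylcholine site, which beta subunits lack, and different combinations of subunits give receptors of different pharmacology. Clock neurons of the fly receive cholinergic input, and the lateral clock neurons respond to nicotine.

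The libraries held 24477244 to 32551739 gene counts, and each of the 9 tested subunits had at least 2186 counts in every library. Prp3 itself averaged 22.0 ± 9.75 CPM (counts relative to the total of the library, with TMM factors) in Prp3-RNAi and 47.9 ± 19.8 CPM in control (SD, n = 3 each). The groups did not overlap, where 6.27% of all tested genes were higher without overlap and 5.34% lower. In edgeR the p-value of Prp3 was 0.00385 before adjustment and 0.384 after it, and DESeq2 adjusted it to 0.00883. All 5 neuron markers and all 9 clock-neuron markers were tested, but the clock neuropeptide gene Pdf had 302, 155 and 19961 CPM in the 3 Prp3-RNAi libraries, against 15942, 2566 and 17385 CPM in the 3 control libraries, in the order of their numbers. The libraries therefore differed in Pdf transcripts within each group. The other 8 clock markers summed to 2179 to 2535 CPM in Prp3-RNAi and 2367 to 3268 CPM in control. Of the single clock markers, cry averaged 85.7 ± 4.97 CPM in Prp3-RNAi and 172 ± 60.4 CPM in control (edgeR, adjusted p = 0.428), and vri 210 ± 39.2 CPM in Prp3-RNAi and 276 ± 39.4 CPM in control (adjusted p = 0.573; SD, n = 3 each). Both were below control in every pair, without overlap of the groups. Markers of other cells were lower: the 8 glia markers summed to 332 to 521 CPM in Prp3-RNAi and 295 to 704 CPM in control, and the 9 photoreceptor markers to 9.81 to 45.7 CPM in Prp3-RNAi and 6.72 to 59.9 CPM in control. Of the 6 tested photoreceptor markers, 2 had a fitted log2 fold change above 0. Of these, ninaC averaged 4.19 ± 2.95 CPM in Prp3-RNAi and 0.106 ± 0.0976 CPM in control, above control in every pair and without overlap (edgeR, adjusted p = 0.435). The most counted, ninaE, had 0.133, 2.95 and 40.3 CPM in Prp3-RNAi libraries 1 to 3 and 54.0, 0 and 43.5 CPM in control libraries 1 to 3. The 5 Kenyon cell markers, several of which other neurons also express, summed to 605 to 779 CPM in Prp3-RNAi and 556 to 673 CPM in control, and of these rut was above control without overlap, at 21.1 ± 1.74 CPM in Prp3-RNAi and 17.1 ± 0.805 CPM in control (edgeR, adjusted p = 0.786). Fat body markers reached at most 29.5 CPM, haemocyte markers 86.6 CPM and muscle markers 7.38 CPM, and Lsp2, He and Act88F were at 0 in all 6 libraries. In sorted pools of cells, fewer cells of a type and less RNA per cell cannot be told apart.

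The genes were first placed on the genome, with coordinates from the Ensembl annotation of BDGP6.54, the dm6 assembly that the labels name. All 10 are protein-coding. The genes nAChRalpha1 (FBgn0000036, 3R, 24393896 to 24457157, minus strand), nAChRalpha2 (FBgn0000039, 3R, 24485428 to 24491147, plus strand) and nAChRbeta2 (FBgn0004118, 3R, 24509228 to 24515106, minus strand) lie side by side in a stretch of 121 kb. Gaps of 28.3 kb and 18.1 kb part them, and CG31128 is the 1 other protein-coding gene that lies wholly between nAChRalpha1 and nAChRbeta2. The remaining genes are dispersed: nAChRalpha3 (FBgn0015519, X, 8276200 to 8367169, minus strand), nAChRalpha7 (FBgn0086778, X, 19327075 to 19348447, minus strand), nAChRalpha4 (FBgn0266347, 3L, 23206669 to 23287448, plus strand) and nAChRbeta1 (FBgn0000038, 3L, 4429349 to 4435993, plus strand). On 2L lie nAChRalpha5 (FBgn0028875, 14040170 to 14094401, plus strand), nAChRalpha6 (FBgn0032151, 9793317 to 9886250, minus strand) and nAChRbeta3 (FBgn0031261, 545129 to 547096, plus strand).

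The family is marked by long genes with many introns. Of the 10 subunits, 5 span more than 50 kb (nAChRalpha1, nAChRalpha3, nAChRalpha4, nAChRalpha5 and nAChRalpha6), against 3.43% of the 8256 tested genes with an annotated length. The largest intron, 43779 bases, lies in nAChRalpha6, whose gene spans 92.9 kb. The transcript with the most introns has 16 in nAChRalpha7, 14 in nAChRalpha5 and nAChRalpha6 and 3 in nAChRbeta3, where the median of the tested genes is 3. The counts were per gene, so splice forms of the subunits were not resolved. Exons of most subunits extend far beyond the longest coding sequence of a single transcript. Stretches outside it take 83.8% of the exonic length of nAChRalpha1 and 13.6% of that of nAChRbeta3. Exons that code only in other transcripts count as outside here.

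Overlap with genes on the other strand decided what could be counted. Libraries were not strand-specific (50.04% to 50.12% of strand-assigned counts fell in the forward column), and the column for both strands together leaves out reads on exons that a pair of genes share. All 1532 exonic bases of nAChRbeta3 lie within exons of Ets21C, a transcription factor gene on the opposite strand. Its count of 0 in all 6 libraries is therefore no measurement of its transcripts. The strand columns, which assign such reads by orientation alone, gave nAChRbeta3 85, 59 and 8 reads in Prp3-RNAi libraries 1 to 3 and 80, 33 and 579 reads in control libraries 1 to 3. Reads of nAChRbeta3 and of Ets21C cannot be told apart there, and no level or change is given for nAChRbeta3. The gene nAChRalpha4 shares 247 exonic bases with lncRNA:CR46475 and lost 10.6% to 14.4% of its strand-assigned reads in this way. For nAChRalpha3, which shares 251 bases with CG1636, the loss was 4.15% to 8.68%. In the other 7 subunits it was at most 0.389%. Without strand information, reads on shared exons cannot be assigned to either gene, so these shares need not be reads of the subunit.

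Among the subunits, nAChRbeta1 was the most abundant and nAChRalpha1 and nAChRalpha3 the least, a 32.5-fold range in CPM per kb of exon. The beta subunit nAChRbeta1 is a common partner in fly receptors and a target of neonicotinoid insecticides. Its level was 399 ± 40.5 CPM per kb in Prp3-RNAi and 356 ± 7.17 CPM per kb in control (SD, n = 3 each), above the level of 97.2% of tested genes. The alpha subunit nAChRalpha7, known for its role in the giant fibre escape circuit, held rank 2 in every library, with 168 ± 3.59 CPM per kb in Prp3-RNAi and 116 ± 21.1 CPM per kb in control. The other abundant beta subunit, nAChRbeta2, followed with 111 ± 20.4 CPM per kb in Prp3-RNAi and 108 ± 14.002 CPM per kb in control. These 3 subunits kept their places in all 6 libraries. In control library 1, however, nAChRalpha7 and nAChRbeta2 were nearly equal, at 92.06 and 91.95 CPM per kb.

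Lower places were less distinct. The spinosad target nAChRalpha6 had 74.1 ± 6.14 CPM per kb in Prp3-RNAi and 70.0 ± 15.6 CPM per kb in control. The level of nAChRalpha2, the alpha subunit next to nAChRalpha1 on 3R, was 55.0 ± 31.8 CPM per kb in Prp3-RNAi and 68.0 ± 28.2 CPM per kb in control. Each of this pair lay above the other in 3 of 6 libraries. The sleep-related subunit nAChRalpha4, mutated in the redeye strain, had 31.3 ± 7.87 CPM per kb in Prp3-RNAi and 32.7 ± 4.31 CPM per kb in control. It lay above nAChRalpha5, a relative of nAChRalpha6 and nAChRalpha7, in 5 of 6 libraries. The level of nAChRalpha5 was 28.4 ± 1.11 CPM per kb in Prp3-RNAi and 27.8 ± 5.19 CPM per kb in control. At the bottom, nAChRalpha1, another neonicotinoid target, had 12.4 ± 0.596 CPM per kb in Prp3-RNAi and 12.0 ± 0.323 CPM per kb in control. In 3 of 6 libraries it lay above nAChRalpha3, which had 12.8 ± 2.58 CPM per kb in Prp3-RNAi and 10.5 ± 1.55 CPM per kb in control. The median of the tested genes was 12.7 CPM per kb. Of the 8 neighbouring pairs in this order, 3 had ranges that did not overlap over the 6 libraries: nAChRbeta1 over nAChRalpha7, nAChRbeta2 over nAChRalpha6, and nAChRalpha5 over nAChRalpha1.

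**Figure D1:**
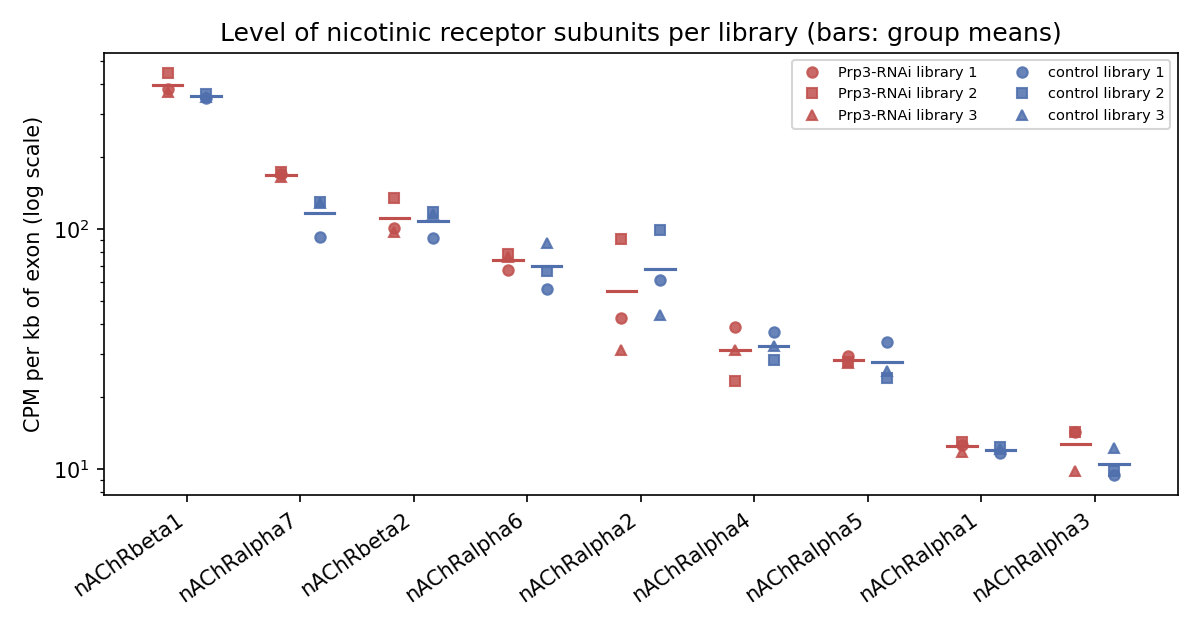
Level of the 9 measurable subunits in CPM per kb of exon (log axis), 1 point per library, Prp3-RNAi left and control right of each tick, bars at group means. Levels run from 378 CPM per kb for nAChRbeta1 to 11.6 for nAChRalpha3 (means over 6 libraries), and the points of the 2 groups are apart for nAChRalpha7 and nAChRbeta1.

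The order below rank 2 depended on the length used. Counted per kb of coding sequence instead of per kb of exon, 4 of the 9 measurable subunits kept their rank. Only the divisor changed: reads outside the coding sequence stayed in the counts, which raises genes with long noncoding exons. On this scale nAChRalpha6 stood at rank 3 with 357 ± 53.9 CPM per kb (SD, n = 6), before nAChRbeta2 at 282 ± 40.5 CPM per kb. The compact gene nAChRalpha2 dropped to rank 7, at 84.95 ± 38.4 CPM per kb. The range between nAChRbeta1 and nAChRalpha3 narrowed to 14.03-fold. The cDNA was primed on polyadenylated RNA and tagmented, and the files do not show how evenly reads covered a transcript, so neither length is known to be the better one.

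**Figure D2:**
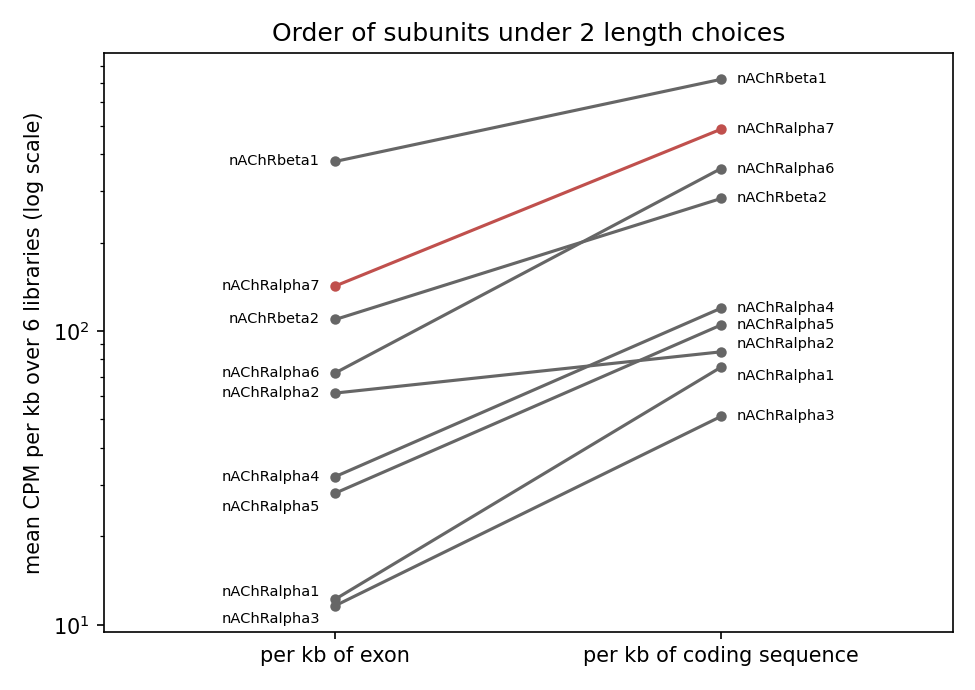
Mean level of the 9 measurable subunits over 6 libraries, in CPM per kb of exon (left) and per kb of coding sequence (right), on a log axis. Lines join a subunit; nAChRalpha7 is red. The 2 leading subunits keep their places, and nAChRalpha6 passes nAChRbeta2 while nAChRalpha2 drops to rank 7.

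The comparison of Prp3-RNAi with control asked whether these transcripts differ between flies with and without the hairpin against Prp3. With the replicate pair in the model, 0 of the 9 tested subunits passed an adjusted p-value threshold of 0.05 with the quasi-likelihood test of edgeR, as did 0% of the 8708 tested genes. At an unadjusted p-value under 0.05, 1 subunit was higher (nAChRalpha7) and 1 was lower (nAChRalpha2), against 4.71% of all tested genes higher and 5.27% lower. DESeq2 called 1 subunit, nAChRalpha7, and 4.36% of all tested genes. Neither limma-voom nor edgeR without the replicate block called a subunit (0 of 9). Of all 8708 tested genes, limma-voom called 4, and edgeR without the block called 0.0919%. The fitted log2 fold change was above 0 for 7 subunits and below 0 for 2, where 50.9% of all tested genes were above 0. Its median was 0.047 over the subunits and 0.0098 over all tested genes. All 3 pairs were higher for 2 subunits and lower for 1, against 17.5% of tested genes higher and 17.6% lower. The groups did not overlap for 2 subunits, nAChRalpha7 and nAChRbeta1, both higher in Prp3-RNAi, where 6.27% of tested genes were higher without overlap and 5.34% lower.

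Among the tested subunits, nAChRalpha7 differed most. It had 976, 992 and 951 CPM in Prp3-RNAi libraries 1 to 3, against 532, 745 and 740 CPM in control libraries 1 to 3. Every Prp3-RNAi library lay above every control library, and the coefficient of variation was 2.13% in Prp3-RNAi and 18.1% in control. The fitted level was 146% of control, or 0.55 on the log2 scale (SE 0.13). In edgeR the p-value was 0.00774 before adjustment and 0.417 after it, so the difference did not pass over all genes. By pair the log2 differences were 0.87, 0.41 and 0.36, so pair 1, with the lowest control library, differed most. DESeq2 fitted 0.54 and adjusted the p-value to 0.00162, the lowest of the 11 alternatives, where the highest was 0.834 without the replicate block. The libraries also differed in Pdf, at 302, 155 and 19961 CPM in Prp3-RNAi libraries 1 to 3 and 15942, 2566 and 17385 CPM in control libraries 1 to 3. The markers cry, vri, ninaC and rut were apart between the groups, as were 6.27% of all tested genes higher and 5.34% lower. The part of Pdf and of these markers in the nAChRalpha7 difference was not tested.

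The subunit with the opposite sign was nAChRalpha2. It had 102, 218 and 74.8 CPM in Prp3-RNAi libraries 1 to 3, against 146, 236 and 105 CPM in control libraries 1 to 3. The groups overlapped widely, since both libraries numbered 2 were high and both numbered 3 low. Within every pair the Prp3-RNAi library was below its control, by log2 differences of -0.52, -0.12 and -0.49. The fitted level was 77.1% of control, or -0.37 on the log2 scale (SE 0.13). In edgeR the p-value was 0.0337 before adjustment and 0.470 after it. Without the replicate block the log2 value was -0.30 with a wider error (SE 0.43), and the p-value before adjustment was 0.503 (edgeR). Over the 6 libraries, log2 CPM of nAChRalpha2 had an SD of 0.66, the widest of the tested subunits, against 0.056 for its chromosomal neighbour nAChRalpha1 and a median of 0.46 over all tested genes. The other gene of that stretch, nAChRbeta2, had an SD of 0.20.

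The abundant partner nAChRbeta1 had 1137, 1325 and 1100 CPM in Prp3-RNAi libraries 1 to 3, against 1041, 1083 and 1053 CPM in control libraries 1 to 3. The groups did not overlap, but the gap between Prp3-RNAi library 3 and control library 2 was small. Fitted on the log2 scale the difference was 0.16 (SE 0.090; edgeR, adjusted p = 0.613), and the pairs differed by 0.13, 0.29 and 0.063.

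Of the other subunits, nAChRalpha3 differed most between pairs. It had 150, 149 and 103 CPM in Prp3-RNAi libraries 1 to 3, against 99.1, 103 and 129 CPM in control libraries 1 to 3. It was higher in pairs 1 and 2 (log2 differences 0.60 and 0.53) and lower in pair 3 (-0.33), and the fitted log2 difference was 0.27 (SE 0.22; edgeR, adjusted p = 0.722). Without pair 3 it was 0.57 (SE 0.15; adjusted p = 0.671), and without pair 1 or pair 2 it was 0.12 or 0.14. In nAChRalpha6 the log2 fold change was 0.10 (SE 0.13) and pair 3 again had the opposite sign: the pairs differed by 0.26, 0.24 and -0.18. Without pair 3 it was 0.25, and without pair 1 or pair 2 it was 0.040 or 0.043.

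The log2 fold changes of the remaining subunits were smaller than their standard errors: 0.045 (SE 0.11) for nAChRalpha1, 0.047 (SE 0.12) for nAChRalpha5, 0.030 (SE 0.12) for nAChRbeta2 and -0.086 (SE 0.12) for nAChRalpha4. The gene nAChRalpha1 was the steadiest, with 139, 143 and 130 CPM in Prp3-RNAi libraries 1 to 3 and 129, 136 and 134 CPM in control libraries 1 to 3. In nAChRbeta2, Prp3-RNAi averaged 445 ± 81.8 CPM and control 434 ± 56.3 CPM (SD, n = 3 each). The averages of nAChRalpha5 were 266 ± 10.4 CPM in Prp3-RNAi and 260 ± 48.6 CPM in control, and those of nAChRalpha4 were 189 ± 47.6 CPM in Prp3-RNAi and 198 ± 26.1 CPM in control. The adjusted p-values of these 4 subunits lay between 0.862 and 0.958 (edgeR), and the sign changed without pair 2 for nAChRalpha4, nAChRalpha5 and nAChRbeta2 and also without pair 1 for nAChRbeta2.

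**Figure D3:**
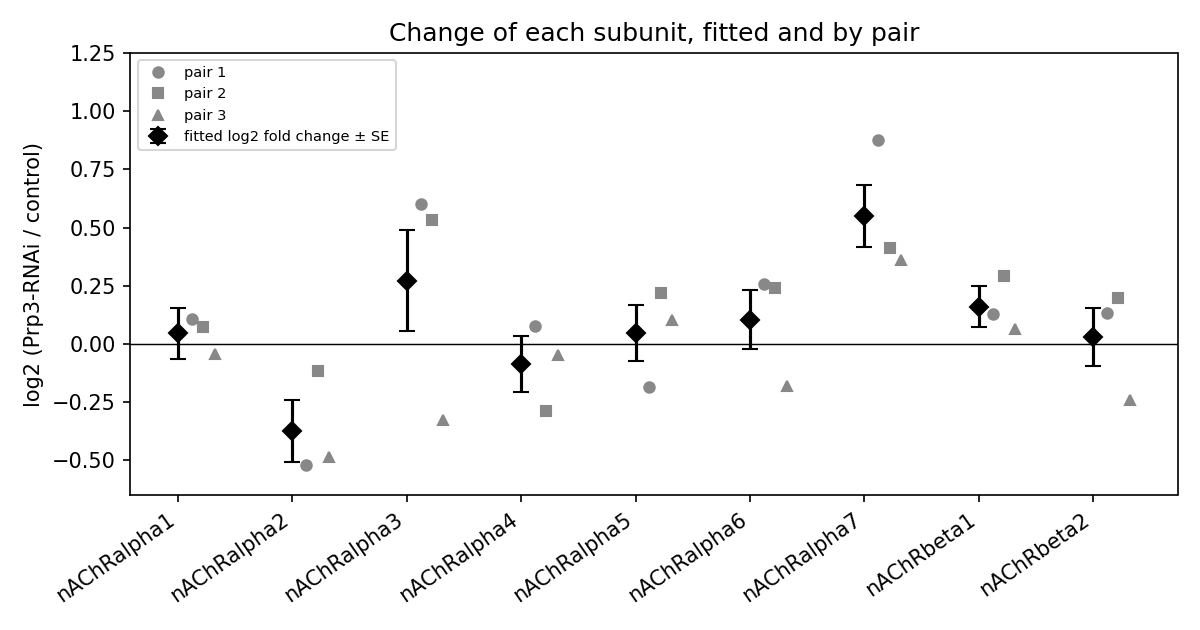
Log2 ratio of Prp3-RNAi to control for the 9 tested subunits. Black diamonds are the fitted log2 fold changes with their standard errors, and grey points the differences of the 3 pairs. For nAChRalpha7 (0.55) and nAChRbeta1 (0.16) all 3 pairs lie above 0, and for nAChRalpha2 (-0.37) all 3 lie below.

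The summed level of the family differed little. Together the 9 measurable subunits had 3946, 4380 and 3794 CPM in Prp3-RNAi libraries 1 to 3 and 3294, 3689 and 3737 CPM in control libraries 1 to 3. All Prp3-RNAi sums were above the control sums, and Prp3-RNAi library 3 lay just above control library 3. The log2 ratio of the group means was 0.18, with log2 differences of 0.26, 0.25 and 0.022 by pair. Without nAChRalpha7 the sums averaged 3067 ± 285 CPM in Prp3-RNAi and 2901 ± 123 CPM in control, a log2 ratio of 0.080.

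Per kb of exon, nAChRbeta1 made up the main share of the family in every library, and the shares of nAChRalpha7 and nAChRalpha2 differed most between the group means. The share of nAChRalpha7 was 19.7%, 17.2% and 20.1% in Prp3-RNAi libraries 1 to 3, against 12.4%, 15.2% and 15.8% in control libraries 1 to 3. The groups did not overlap in this share, which uses the same counts as the difference above. The share of nAChRalpha2 averaged 5.97 ± 2.79% in Prp3-RNAi and 8.42 ± 3.12% in control, with overlap. The share of nAChRbeta1 was 44.7 ± 0.294% in Prp3-RNAi and 44.5 ± 2.27% in control. Alpha subunits together took 42.9 ± 0.824% in Prp3-RNAi and 42.0 ± 1.45% in control. The related subunits nAChRalpha5 to nAChRalpha7 took 30.5 ± 2.49% in Prp3-RNAi and 26.7 ± 2.71% in control, and the groups overlapped. The shares leave out nAChRbeta3 and depend on the length used: per kb of coding sequence, alpha subunits took 56.9 ± 1.98% in Prp3-RNAi and 55.3 ± 1.45% in control.

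**Figure D4:**
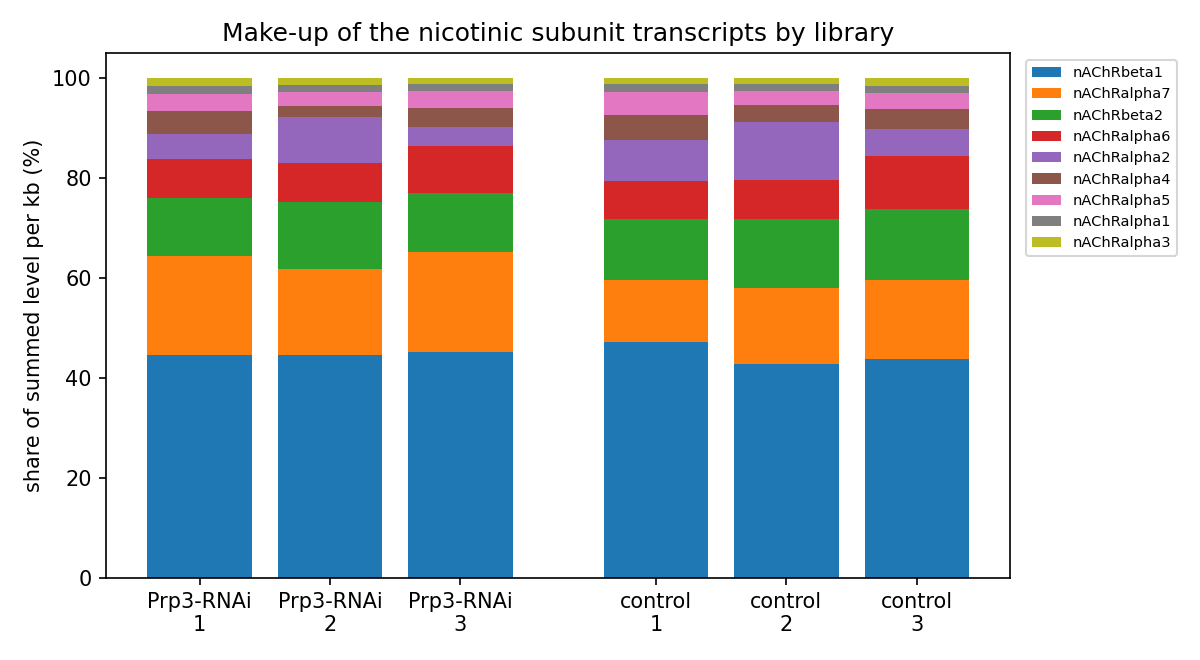
Share of each of 9 subunits in the summed level per kb of exon, 1 stacked bar per library, the 3 Prp3-RNAi libraries left and the 3 control libraries right. The share of nAChRalpha7 is between 17.2% and 20.1% in Prp3-RNAi and between 12.4% and 15.8% in control.

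Genes listed as possible partners of nicotinic receptors were read from the same fit. Of 13 listed genes, mostly of Ly6-type and synaptic cleft proteins, 12 were tested. EdgeR called 0 of these and 0% of all tested genes. DESeq2 called 1, atilla, and 4.36% of all tested genes. At an unadjusted p-value under 0.05 in edgeR, 2 of the 12 were higher and 0 lower, against 4.71% of all tested genes higher and 5.27% lower. Log2 fold changes of the list had a median of 0.093, and those of all tested genes one of 0.0098. Not every protein of this list is known to bind the receptor, and the planned symbols Ric3, NACHO and Creld were not found. The counts and the median therefore describe the listed genes only. The cleft scaffold gene Hasp, the most counted of the list, had 1153 ± 279 CPM in Prp3-RNAi and 1321 ± 236 CPM in control. Its fitted log2 difference was -0.21 (SE 0.094, edgeR, adjusted p = 0.546). The groups of Hasp overlapped, and all 3 pairs were lower, as for 17.6% of all tested genes. The gene Adar, whose enzyme edits transcripts of several nicotinic subunits, had 191, 129 and 167 CPM in Prp3-RNAi libraries 1 to 3 and 144, 120 and 124 CPM in control libraries 1 to 3. Its groups overlapped, all 3 pairs were higher in Prp3-RNAi, and the fitted log2 difference was 0.31 (SE 0.12; edgeR, adjusted p = 0.498). The other gene at that level was atilla, a Ly6-type gene used as a blood-cell marker, with 354, 86 and 155 counts in Prp3-RNAi libraries 1 to 3 and 0, 15 and 0 counts in control libraries 1 to 3 (adjusted p-value 0.480 in edgeR and 0.000621 in DESeq2). It was almost absent in control and low in Prp3-RNAi, at 2.73 to 11.8 CPM. Summed haemocyte markers were at 43.7 to 60.5 CPM in Prp3-RNAi and 51.3 to 86.6 CPM in control. Most of this sum was Pxn, except in control library 3, where Hml had 45.9, NimC1 29.0 and Pxn 11.6 CPM. In the other libraries Hml was at most 0.188 CPM and NimC1 at 0. The part of haemocyte transcripts in the atilla result was not tested.

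The genes that make and break down acetylcholine, and the muscarinic receptors, showed no called difference. Of 7 listed genes, 6 were tested, and edgeR and DESeq2 called 0 each, where edgeR called 0% and DESeq2 4.36% of all tested genes. Before adjustment, 0 of the 6 had a p-value under 0.05 in edgeR, where 4.71% of all tested genes were higher and 5.27% lower, so a count of 0 among 6 does not set the list apart. Its median log2 fold change was 0.062. The acetylcholine-synthesis gene ChAT had 45.0, 156 and 51.0 CPM in Prp3-RNAi libraries 1 to 3 and 78.6, 174 and 41.0 CPM in control libraries 1 to 3. Like nAChRalpha2, it was high in both libraries numbered 2. The vesicular transporter gene VAChT averaged 139 ± 13.8 CPM in Prp3-RNAi and 119 ± 5.61 CPM in control (adjusted p-value 0.613, edgeR). All 3 of its pairs were higher. Its groups just failed to overlap, at 125.9 CPM in Prp3-RNAi library 2 and 125.7 CPM in control library 1. Of all tested genes, 6.27% were higher without overlap. The esterase gene Ace averaged 308 ± 3.01 CPM in Prp3-RNAi and 274 ± 39.2 CPM in control (edgeR, adjusted p-value 0.672). Its groups overlapped, and all 3 pairs were higher. The muscarinic receptor gene mAChR-C was at 0 in all 6 libraries.

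The other Cys-loop channels served as a comparison within the receptor superfamily. Of 12 listed genes, 9 were tested. EdgeR called 0 of these and 0% of all tested genes. DESeq2 called 1, CG8916, and 4.36% of all tested genes. At an unadjusted p-value under 0.05 in edgeR, 1 of the 9 was higher and 0 lower, beside the same 4.71% and 5.27% of all tested genes, and the median log2 fold change was 0.012. The GABA receptor gene Rdl, the most counted, had 1617 ± 35.5 CPM in Prp3-RNAi and 1604 ± 24.0 CPM in control, a fitted log2 difference of 0.012 (SE 0.075; edgeR). Per kb of exon its level over the 6 libraries was 179 ± 3.12 CPM, between those of nAChRbeta1 (378 ± 35.1) and nAChRalpha7 (142 ± 31.5). Its level per kb of coding sequence was not computed, so this place holds for exon length only. The exception was CG8916, a gene related to GABA receptor subunits, with 85.2, 70.7 and 60.7 CPM in Prp3-RNAi libraries 1 to 3 and 41.9, 37.7 and 12.96 CPM in control libraries 1 to 3. Its groups did not overlap, and the fitted log2 difference was 1.37 (SE 0.31). In edgeR the p-value was 0.00607 before adjustment and 0.405 after it, while DESeq2 fitted 1.36 with an adjusted p-value of 0.00465.

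Outside the family, the 3 tested genes whose centred log2 CPM followed the summed subunit level most closely over the 6 libraries were cpo, slo and CG32428, at root mean square distances of 0.056, 0.061 and 0.067 on the log2 scale, against a median of 0.43 over all tested genes. The gene cpo codes for an RNA-binding protein of the nervous system and slo for a calcium-activated potassium channel. The smallest of the distances of all tested genes over 6 libraries is low by selection, so this is a description only.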

How the data were processed

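RNA of sorted clock neurons was sequenced in 6 libraries. Per the submitters' processing notes, Trim Galore 0.6.7, STAR 2.7.0a and build dm6 were used; the annotation and the counting settings are not given in the sources used here. The deposited values are raw read counts per gene, 1 column for the strands together and 1 for each strand, which the authors had not normalized, as far as the values show. The column for the strands together was used. Lines that name no gene held 18.5% to 24.4% of reads and were left out. Reads carry no molecular identifiers in the labels' protocol, so amplified copies are not independent molecules.

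Groups follow the titles. Differences were tested with edgeR 4.0.16 (glmQLFit and glmQLFTest, two-sided, TMM scaling) in R 4.3.3, with replicate number as a block because the titles state the pairing, on 8708 of 17868 genes kept by filterByExpr (min.count 10, min.total.count 15). P-values were adjusted over all tested genes by Benjamini and Hochberg. Pair differences used log2 CPM with a prior count of 2. The fit was tested on simulated data. Alternatives were DESeq2 1.42.0, limma-voom (limma 3.58.1), RLE scaling, no block, other filters, the strand columns, removal of each pair and, for levels, other lengths; lengths of own exons and of the longest transcript were added after seeing the data. As a check of the pairing, deviations of log2 CPM from group means correlated at 0.046, 0.27 and 0.24 between libraries of the same number and at -0.25 to 0.02 between others, with pair 1 the lowest. Deviations within a group sum to 0 for each gene, so positive values at the same number push the others below 0. The contrast is therefore not independent support for the pairing. Nothing says that libraries came from separate flies, so p-values refer to these libraries only. With the block they measure the spread of the differences within pairs, and without it the spread between libraries of a group.

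Subunits and lists were chosen with earlier results of these data known. Named genes were all subunits, Prp3, list genes with an unadjusted p-value under 0.05, ChAT, VAChT, Ace, the most counted gene of each list, and the 3 nearest profiles. Of the listed symbols, 13 of 21, 7 of 8 and 12 of 14 were found in the files; some are alternative names of the same gene. Protein features of the subunits were not analysed here.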

Additional observations from a re-analysis of the deposited data

Results flagged for a closer look

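Reads that the strand columns gave to nAChRalpha3 and the column for both strands left out averaged 8.34 CPM (scaled to gene totals without TMM) in Prp3-RNAi, above the highest control library at 7.75. They were 6.93, 8.26 and 9.83 CPM in Prp3-RNAi libraries 1 to 3 and 4.73, 7.75 and 5.27 CPM in control libraries 1 to 3. The groups overlapped, these reads lie where exons of CG1636 run on the other strand, and the difference was not tested.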

How the results depend on the processing

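EdgeR with the replicate block called 0 genes and 0 subunits. Over all genes, 8 were called without the replicate block, 380 by DESeq2, 4 by limma-voom, 11 with a filter of at least 1 count, 10 in the forward-strand column, 5 in the reverse-strand column and 0 to 4 when a pair was left out. Of the subunits, 1 (nAChRalpha7) was called by DESeq2 and 0 in each of the other 10 alternatives, the fit without the block included. The sign of the fold change held for 6 of the 9 tested subunits in all 11 alternatives. When a pair was left out, the log2 value ran from -0.16 (without pair 1) to 0.021 (without pair 2) for nAChRalpha4, from -0.034 (without pair 2) to 0.17 (without pair 1) for nAChRalpha5 and from -0.048 (without pair 2) to 0.17 (without pair 3) for nAChRbeta2, which was also below 0 without pair 1 (-0.010). In the partner, acetylcholine and Cys-loop lists, 3 genes had an unadjusted p-value under 0.05 with the block, 5 with limma-voom, 5 in the forward-strand column and 1 to 5 when a pair was left out, where the counts over all genes were 869, 1010, 939 and 529 to 756. DESeq2 called atilla and CG8916 of these lists, and 0 of their genes were called in each of the other 10 alternatives. Per kb of coding sequence, 4 of the 9 measurable subunits kept their rank. The log2 ratio of summed CPM was 0.16 with RLE scaling and 0.25 with library totals, and 0.14 to 0.25 when a pair was left out. The causes were not tested.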

Other observations

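Some genes of the lists varied with the replicate number more than with the group. The Ly6-type gene twit had 60.6, 105 and 328 CPM in Prp3-RNAi libraries 1 to 3 and 71.9, 110 and 362 CPM in control libraries 1 to 3, so that both libraries numbered 3 were high. The pairs differed by log2 values of -0.25, -0.069 and -0.15 (edgeR, adjusted p = 0.680). The gene qvr, whose protein Sleepless lowers nicotinic receptor activity, was among the more abundant genes of the partner list. It had 899, 819 and 743 CPM in Prp3-RNAi libraries 1 to 3 and 1050, 815 and 817 CPM in control libraries 1 to 3. Its fitted log2 difference was -0.12 (SE 0.093; edgeR, adjusted p = 0.720), and the groups overlapped. Both genes were picked here after their values were seen.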
